A study of Mus musculus with 8 samples.

Results

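The Iroquois genes Irx1, Irx2, Irx3, Irx4, Irx5 and Irx6 were followed through 8 RNA sequencing libraries of mouse embryonic forebrain and spinal cord. They were picked by symbol, and all 6 were found among the 36317 distinct gene symbols of the table (36333 rows, 16 symbols being repeated). They form the IrxA cluster (Irx1, Irx2 and Irx4, chromosome 13) and the IrxB cluster (Irx3, Irx5 and Irx6, chromosome 8). The study asked how the embryonic central nervous system differs from control when EED, one of the core proteins of the Polycomb complex PRC2, is removed under Sox1-Cre. The 4 groups held 2 libraries each: EED-cKO forebrain and wild-type (wt) forebrain, both from embryonic day (E) 15.5, and wt spinal cord and wt forebrain, both from E13.5. Sox1-Cre acts in cells of the neural lineage, and cells outside that lineage would keep Eed. Which cells of the dissection lost Eed was not measured. A bulk library also holds RNA of vessels, meninges, blood and microglia. The labels do not say whether the wt embryos carried Cre or floxed alleles, nor whether a library came from 1 embryo or a pool, and p-values therefore speak only of the spread among these libraries, which may be technical.

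Iroquois proteins are homeodomain transcription factors of the TALE class, so called because their homeodomain has an extended loop. The family was found as a gene complex of the fruit fly, and in vertebrates its members take part in dividing the neural plate and tube into territories. The anterior forebrain, which expresses Six3, lies in front of a border beyond which Irx genes are expressed in the caudal diencephalon, midbrain, hindbrain and spinal cord. In the spinal cord, Irx3 marks progenitors of interneurons and opposes Olig2, the factor of motor neuron progenitors. PRC2 trimethylates histone H3 at lysine 27, and genes of developmental transcription factors with CpG-rich promoters are among its best known targets.

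On GRCm38 (GENCODE M21), Irx1 lay at chr13:71957921-71963723 on the minus strand, Irx2 at chr13:72628820-72634198 and Irx4 at chr13:73260479-73269608, both on the plus strand. The IrxA cluster spanned 1311.7 kb. Irx3 lay at chr8:91798525-91802067 on the minus strand, with Irx5 at chr8:92357625-92376286 and Irx6 at chr8:92674288-92680956 on the plus strand, and the IrxB cluster spanned 882.4 kb. The gaps between neighbouring Irx genes were 665.1 and 626.3 kb in IrxA and 555.6 and 298.0 kb in IrxB, and each held 0 other protein-coding genes.

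The 6 genes encode nearly the same homeodomain, which matters for counting 50-base reads. The stretch below is 90 bases of coding sequence (GENCODE M21, GRCm38, coding strand, 5′ to 3′) that runs through the part of the homeobox for the helix that contacts DNA. Capitals mark the 76 bases that are identical in all 6 genes.
Irx1: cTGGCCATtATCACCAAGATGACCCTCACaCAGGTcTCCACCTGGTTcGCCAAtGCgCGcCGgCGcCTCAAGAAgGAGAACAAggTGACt
Irx2: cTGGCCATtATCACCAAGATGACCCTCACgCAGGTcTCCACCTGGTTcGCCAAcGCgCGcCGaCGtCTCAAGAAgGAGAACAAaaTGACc
Irx4: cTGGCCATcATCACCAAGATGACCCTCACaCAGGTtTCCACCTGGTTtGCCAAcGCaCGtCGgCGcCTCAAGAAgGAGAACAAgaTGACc
Irx3: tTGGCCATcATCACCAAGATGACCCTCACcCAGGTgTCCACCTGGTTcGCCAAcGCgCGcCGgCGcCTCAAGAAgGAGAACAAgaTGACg
Irx5: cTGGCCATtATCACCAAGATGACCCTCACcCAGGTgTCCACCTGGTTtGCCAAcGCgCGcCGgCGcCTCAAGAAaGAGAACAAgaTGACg
Irx6: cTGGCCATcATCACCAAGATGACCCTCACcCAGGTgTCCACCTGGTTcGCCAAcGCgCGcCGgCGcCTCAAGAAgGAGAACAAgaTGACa
Irx3 and Irx6 were identical at 88 of the 90 bases, and their coding sequences shared an unbroken run of 88 bases. The longest run shared by Irx2 and Irx5 was 65 bases, and that of Irx3 and Irx5 was 50 bases. A 50-base read that falls inside such a run cannot be assigned to one gene. Such reads are a small part of each transcript, since 1.45% of the distinct 50-base stretches of Irx3, 1.16% of those of Irx6, 0.552% of those of Irx5 and 0.481% of those of Irx2 occur in another Irx gene. In Irx1 and Irx4 the number was 0. The libraries were unstranded, so reads from the 124 exonic bases that Irx3 shares with the antisense gene Irx3os, and from the 152 that Irx6 shares with Gm45505, cannot be told apart either.

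The promoters of Irx2 and Irx4 are shown for their CpG content, a feature of many Polycomb target genes. Both are RefSeq sequences (GRCm38.p6, plus strand, 5′ to 3′) that end at or before the start of the gene in GENCODE M21, chr13:72628570-72628819 for Irx2 and chr13:73260247-73260478 for Irx4, and capitals mark each CG.
Irx2: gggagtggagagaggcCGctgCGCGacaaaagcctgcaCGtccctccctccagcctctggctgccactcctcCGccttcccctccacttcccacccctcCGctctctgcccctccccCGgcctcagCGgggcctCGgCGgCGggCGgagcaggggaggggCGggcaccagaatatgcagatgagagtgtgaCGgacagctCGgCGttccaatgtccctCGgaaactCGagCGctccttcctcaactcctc
Irx4: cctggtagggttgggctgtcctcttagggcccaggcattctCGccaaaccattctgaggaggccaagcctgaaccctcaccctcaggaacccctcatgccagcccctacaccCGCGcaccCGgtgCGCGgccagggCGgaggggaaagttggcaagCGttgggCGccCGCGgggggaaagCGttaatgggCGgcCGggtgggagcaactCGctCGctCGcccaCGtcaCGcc
The 250 bases before the start that RefSeq gives held 22 CG for Irx4, 19 for Irx2 and 13 for Irx3, against a median of 6 over 27025 mouse promoters of the same length. The GENCODE starts differ for 2 of these genes: of the Irx4 window, the last bases lie past that start and the 232 before it, as printed, held 19 CG, while the Irx3 window (chr8:91801655-91801904) lies inside the GENCODE gene. As many CG or more were found in 14.6% of all promoters for Irx4, 19.6% for Irx2 and 31.8% for Irx3. The motif ACANNTGT, a palindrome bound by Iroquois proteins of the fly that reads the same on both strands and was searched on both, was found 0 times in these 3 windows and in 6.29% of all promoters. The RefSeq table matched 3 of the 6 genes, not Irx1, Irx5 and Irx6.

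All values are RPKM (reads scaled to transcript length and to the mapped reads of the library), deposited in steps of 0.1. With no counts, sequencing depth per library is unknown. RPKM summed over all genes to 761647 to 843296 in the E15.5 libraries and to 378294 to 397320 in the E13.5 libraries, and the ages were therefore not tested against each other. Eed, the targeted gene, was at 10.0 and 10.6 RPKM in EED-cKO forebrain, against 25.8 and 27.9 RPKM in wt E15.5 forebrain. The knockout libraries were thus both lower than the wt libraries, as their labels say, with a log2 change of -1.30 ± 0.085 (SE, limma adjusted p = 8.65e-05). The drop was not particular to Eed. Of 6 PRC2 core subunits 4 fell and 1 rose, while of all tested genes 16.7% fell and 30.2% rose. Ezh2, which was not targeted, fell by 1.12 (limma adjusted p = 7.32e-05). Without a deletion, Eed was also lower in wt spinal cord (19.1 and 17.0 RPKM) than in wt E13.5 forebrain (31.2 and 34.0 RPKM). Emx1, which marks the developing cortex, was at 0.1 and 0.0 RPKM in wt spinal cord and at 59.3 and 56.1 RPKM in wt E13.5 forebrain, as those labels say.

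Of the 6 genes, 5 passed the filter (1 RPKM or more in 2 or more of the 8 libraries) and Irx4 did not. In EED-cKO forebrain, Irx1 had the highest mean level, 10.95 ± 1.34 RPKM (SD, n = 2), followed by Irx2 at 8.05 ± 1.49, Irx3 at 7.65 ± 0.778 and Irx5 at 6.6 ± 0.849 RPKM. Irx2, Irx3 and Irx5 overlapped with one another between libraries, while Irx6 at 1.9 and Irx4 at 0.2 RPKM lay apart below them. In wt E15.5 forebrain the order was the same, with Irx1 at 8.0 ± 2.55, Irx2 at 4.35 ± 2.19, Irx3 at 4.0 ± 1.27, Irx5 at 2.65 ± 0.354 and Irx6 at 1.05 ± 0.212 RPKM. Irx2 again overlapped with both Irx3 and Irx5, which did not overlap with each other. In wt spinal cord, Irx1 at 12.95 ± 0.495, Irx3 at 11.85 ± 0.212 and Irx2 at 11.05 ± 0.495 RPKM were near one another without overlap. Irx5 followed at 6.75 ± 0.0707, Irx6 at 1.2 ± 0.141 and Irx4 at 0.7 ± 0.141 RPKM. In wt E13.5 forebrain, Irx3 was first at 7.45 ± 2.48 RPKM, but its libraries overlapped with those of Irx1 at 5.5 ± 3.82, those of Irx1 with Irx2 at 3.6 ± 2.83, and those of both Irx1 and Irx2 with Irx5 at 2.7 ± 0.849 RPKM. Irx6 at 0.45 ± 0.212 RPKM lay below them.

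**Figure D1:**
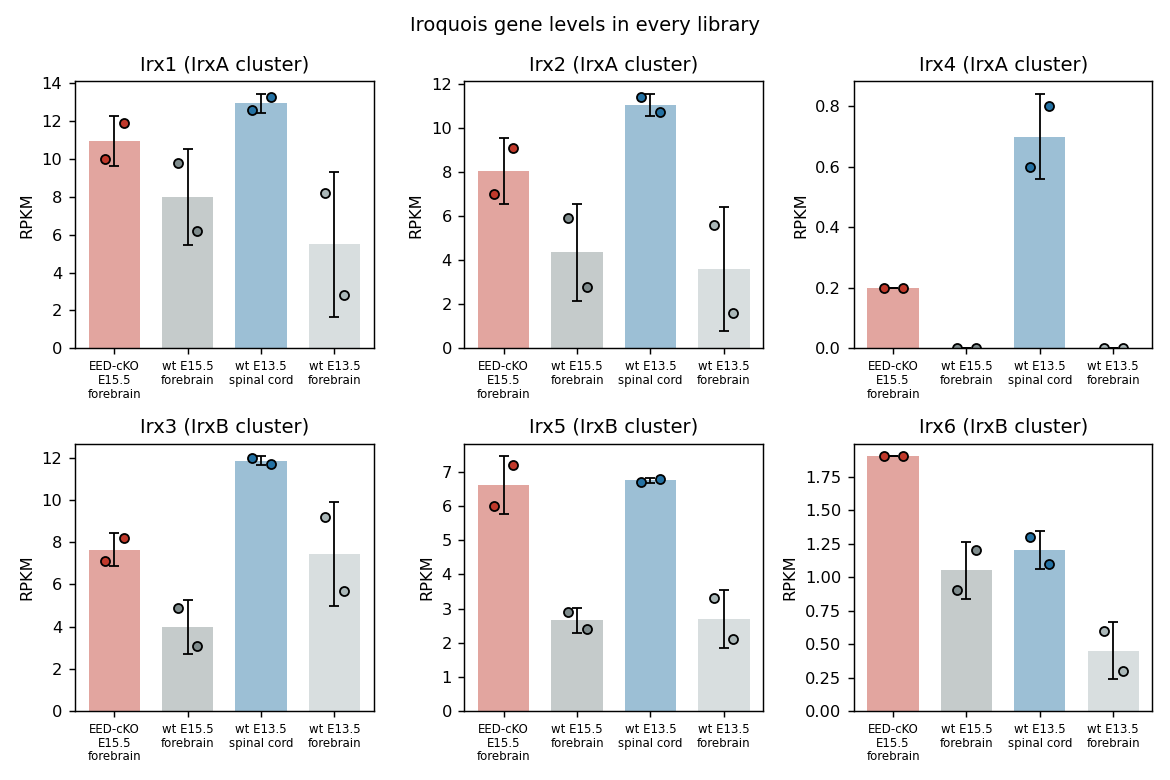
RPKM of each Irx gene (vertical axis, from 0, one panel per gene) in the 4 groups, with a bar for the mean, an error bar for the SD (n = 2) and a point for each library. In every panel both EED-cKO points lie above both wt E15.5 points, and both spinal cord points above both wt E13.5 forebrain points, while Irx1 and Irx2 have wide wt forebrain error bars.

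Both EED-cKO libraries were above both wt E15.5 libraries for all 6 Irx genes. Such a pattern was found in 25.9% of all genes of the table and in 42.6% of the genes tested. Of the 5 tested members, 3 passed the test (limma, adjusted p under 0.05), all of them higher and all of the IrxB cluster: Irx3, Irx5 and Irx6. Of all 17022 tested genes, 46.9% passed, 30.2% as higher and 16.7% as lower in EED-cKO. The median change was 0.81 on the log2(RPKM + 1) scale over the 5 tested members and 0.08 over all tested genes. In bulk tissue, more cells that express a gene and more RNA per cell cannot be told apart, and this holds for every change below. An exact permutation test of 2 against 2 libraries cannot give a two-sided p below 0.333, so the calls rest on limma, which takes part of its estimate of the spread from all genes and all 8 libraries.

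Irx5, which is needed for cone bipolar cells of the mouse retina and for the repolarization gradient of the heart, was at 6.0 and 7.2 RPKM in EED-cKO forebrain, against 2.9 and 2.4 RPKM in wt E15.5 forebrain. Both knockout libraries were clear of the wt libraries, with a ratio of means of 2.49. The log2 change was 1.06 ± 0.168 (SE, 95% interval 0.66 to 1.45, limma adjusted p = 0.00238), and Irx5 passed in each of 20 alternative analyses (log2 change 0.71 to 1.28, adjusted p 0.00138 to 0.0304).

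Irx3, the marker of interneuron progenitors, was at 7.1 and 8.2 RPKM in EED-cKO forebrain and at 4.9 and 3.1 RPKM in wt E15.5 forebrain. The groups did not overlap, and the gap between them (7.1 against 4.9 RPKM) was little wider than the gap within wt. The ratio of means was 1.91 and the log2 change 0.81 ± 0.231 (SE, 95% interval 0.27 to 1.36, limma adjusted p = 0.0249). Irx3 no longer passed in 8 of 20 alternatives, among them quantile normalization (log2 change 0.48, adjusted p = 0.0898), the fit of the 4 E15.5 libraries alone (0.0769) and the fit with no filter on low values (0.0762). Without wt E15.5 replicate 2 the log2 change was 0.55 (adjusted p = 0.147), without EED-cKO replicate 1 or replicate 2 the adjusted p was 0.0853 or 0.15, and without either spinal cord library, which changes only the estimate of the spread, it was 0.0531.

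Irx6, which is known from bipolar cells of the mouse retina, was near the lower end of what the table resolves, at 1.9 RPKM in EED-cKO replicates 1 and 2, against 0.9 and 1.2 RPKM in wt E15.5 forebrain. The groups did not overlap, and the ratio of means was 1.81. The log2 change was 0.50 ± 0.127 (SE, 95% interval 0.20 to 0.80, limma adjusted p = 0.0158). The call was lost under quantile normalization (log2 change 0.17, adjusted p = 0.353), median ratio scaling (0.37, adjusted p = 0.0543) and a pseudocount of 0.1 RPKM (0.81, adjusted p = 0.0554). It was also lost without wt E15.5 replicate 1 (adjusted p = 0.0646), EED-cKO replicate 1 (0.0705) or EED-cKO replicate 2 (0.0763).

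In the IrxA cluster, 0 of the 2 tested genes passed. Irx1 was at 10.0 and 11.9 RPKM in EED-cKO forebrain and at 9.8 and 6.2 RPKM in wt E15.5 forebrain. The lower knockout library and the higher wt library were close, and the log2 change of 0.43 ± 0.386 (SE, 95% interval -0.48 to 1.35) did not pass the test (limma adjusted p = 0.392). Irx2, which acts in the patterning of the cerebellum, was at 7.0 and 9.1 RPKM in EED-cKO forebrain and at 5.9 and 2.8 RPKM in wt E15.5 forebrain. Its libraries did not overlap either, but the gap between the wt libraries was wider than that between the groups, and the log2 change of 0.81 ± 0.442 (SE, 95% interval -0.23 to 1.86) did not pass the test (limma adjusted p = 0.173). Neither gene passed in any of 20 alternatives, over which the log2 change was 0.14 to 0.73 for Irx1 and 0.38 to 1.24 for Irx2. Without wt E15.5 replicate 2 it was 0.14 for Irx1 and 0.38 for Irx2, and without wt E15.5 replicate 1 it was 0.73 and 1.24.

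Irx4, best known as a ventricle-restricted factor of the heart, had 0.2 RPKM in each EED-cKO library, while wt E15.5 replicates 1 and 2 list it at 0. At E13.5 it was at 0.6 and 0.8 RPKM in wt spinal cord and was listed at 0 in both wt forebrain libraries. It was the Irx gene with the lowest level in every group, and no fold can be given against a group listed at 0. When the filter on low values was left out, Irx4 passed in the knockout (limma adjusted p = 0.0227, beside 29.9% of 28325 genes that passed, 20.0% as higher) and in spinal cord (adjusted p = 0.000945, beside 26.4%, 13.0% as higher), from values of a few 0.1 RPKM steps and no spread in the forebrain groups.

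**Figure D2:**
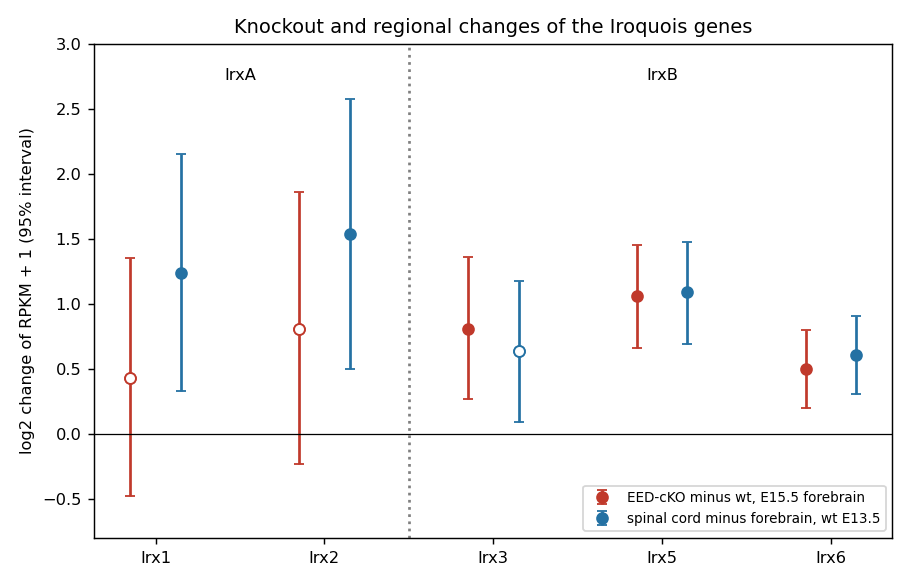
Log2 change of RPKM + 1 with its 95% interval (vertical axis) for the 5 tested Irx genes, with the IrxA genes left of the dotted line, for EED-cKO minus wt at E15.5 (red) and spinal cord minus forebrain in wt at E13.5 (blue); filled points passed at a limma adjusted p under 0.05. The red intervals of Irx1 and Irx2 cross 0 and contain the red points of Irx3, Irx5 and Irx6.

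The 3 IrxB genes passed and the 2 tested IrxA genes did not, but this does not show that the clusters responded differently, and the difference between them was not tested. The split also depends on the filter, since without it Irx4 of IrxA passed (limma adjusted p = 0.0227) and Irx3 of IrxB did not (0.0762). Summed RPKM of the IrxB genes was 15.0 and 17.3 in EED-cKO forebrain, against 8.7 and 6.7 in wt E15.5 forebrain, a ratio of means of 2.1. Summed RPKM of the IrxA genes was 17.2 and 21.2 in EED-cKO forebrain, against 15.7 and 9.0 in wt E15.5 forebrain, a ratio of 1.55. The 95% intervals of Irx1 and Irx2 contained the estimates of all 3 IrxB genes, and were wider. The fit uses 1 spread per gene over all 8 libraries, so libraries outside this comparison also set their width. The wt E13.5 forebrain libraries differed by 1.28 (log2) for Irx1 and 1.34 for Irx2, against 0.61 for Irx3. In wt E15.5 forebrain these differences were 0.58, 0.86 and 0.53.

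The wt forebrain libraries differed from each other in the Irx genes at both ages. In wt E15.5 forebrain, replicate 1 was above replicate 2 for 4 of the 5 tested members, by a log2 difference of 0.58 for Irx1 and 0.86 for Irx2. Only 2.34% of tested genes lay as far apart as Irx1 between these libraries and 0.652% as far apart as Irx2. In wt E13.5 forebrain, replicate 1 was above replicate 2 for 5 of 5, by 1.28 for Irx1 and 1.34 for Irx2, and 0.305% and 0.258% of tested genes lay as far apart. In EED-cKO forebrain, replicate 2 was equal to or above replicate 1 in all 5, by at most 0.34, and in spinal cord the differences were at most 0.13. The labels' replicate numbers name samples and do not tie the ages together.

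Factors of the caudal diencephalon and midbrain, territories that express Irx genes, differed between the same libraries. Over a list of 23 such factors, summed RPKM was 387.6 and 414.6 in EED-cKO forebrain, against 199.5 and 120.8 in wt E15.5 forebrain. At E13.5 it was 210.5 and 215.5 in wt spinal cord, against 260.0 and 203.1 in wt forebrain. In wt E15.5 forebrain, replicate 1 was higher than replicate 2 for 20 of the 23 (median log2 difference 0.49), against 8939 of all 17022 tested genes (median 0.03). In wt E13.5 forebrain it was higher for 17 of the 23 (median 0.14), against 7815 of all tested genes (median 0.00). Replicate 1 of either wt forebrain group thus had the higher value for most of these factors and for the tested Irx genes other than Irx6 at E15.5 (0.9 in replicate 1 and 1.2 RPKM in replicate 2). Tcf7l2, which is strong in the thalamus, was at 65.1 and 26.4 RPKM in wt E15.5 forebrain replicates 1 and 2 and at 79.2 and 47.2 RPKM in wt E13.5 forebrain replicates 1 and 2. Tcf7l2 alone made up a large part of the gap between the replicate sums at both ages. The lean to replicate 1 was not particular to this list. In wt E15.5 forebrain, of the lists below, replicate 1 was higher for 18 of 20 spinal cord progenitor factors, 13 of 14 mesenchyme and meninges markers and 7 of 8 endothelium markers. It was higher for 3 of 8 cortical neuron markers and 1 of 8 blood cell markers. The part of these library differences in the Irx results was not tested.

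**Figure D3:**
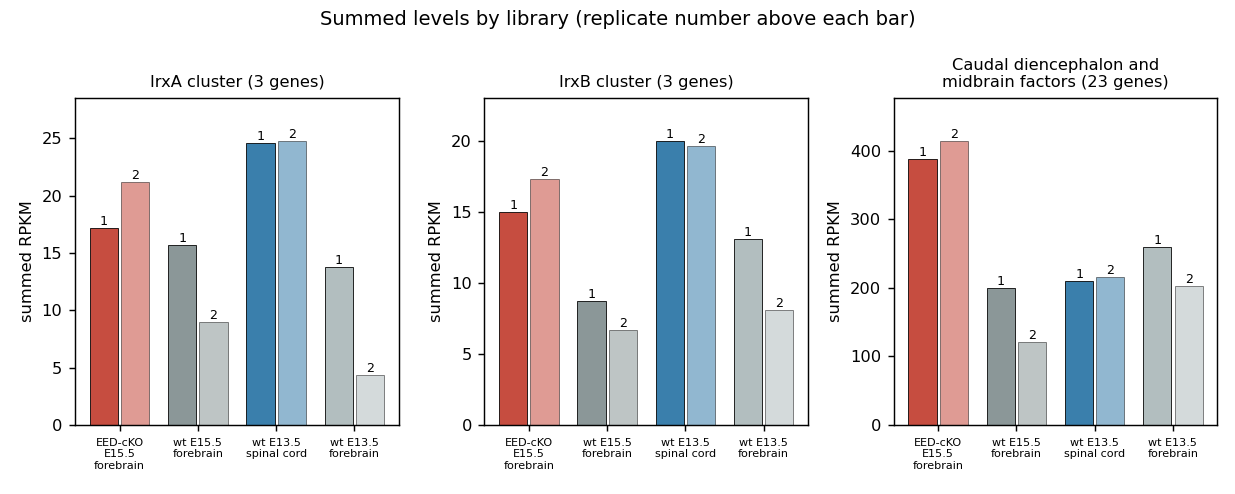
Summed RPKM in each library (vertical axes, from 0; the number above a bar is the replicate) for the IrxA genes, the IrxB genes and the 23 factors of the caudal diencephalon and midbrain. In both wt forebrain groups replicate 1 stands above replicate 2 in all 3 panels, while the EED-cKO bars are above the wt E15.5 bars.

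Between the E13.5 tissues of wt embryos, both spinal cord libraries were above both forebrain libraries for all 6 Irx genes, a pattern found in 20.6% of all genes of the table and 37.0% of those tested. Of the 5 tested members 4 passed as higher in spinal cord (Irx1, Irx2, Irx5 and Irx6), beside 45.7% of all tested genes that passed, 21.8% as higher and 23.9% as lower. The median change was 1.09 over the members and 0.00 over all tested genes.

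In the IrxA cluster, Irx1 was at 12.6 and 13.3 RPKM in spinal cord, against 8.2 and 2.8 RPKM in forebrain, and Irx2 at 11.4 and 10.7 RPKM in spinal cord, against 5.6 and 1.6 RPKM in forebrain. The spinal cord libraries were alike and the forebrain libraries far apart. The log2 change was 1.24 ± 0.386 for Irx1 (limma adjusted p = 0.0351) and 1.54 ± 0.442 for Irx2 (adjusted p = 0.0257, SE in both). Irx1 missed the threshold in 9 of 20 alternatives and Irx2 in 7. Without wt E13.5 forebrain replicate 2, which is the low library, the log2 change was 0.60 for Irx1 (adjusted p = 0.124) and 0.87 for Irx2 (0.121). Without spinal cord replicate 1 or 2 the adjusted p was 0.127 or 0.142 for Irx1 and 0.119 or 0.102 for Irx2, and it was 0.151 for Irx1 and 0.111 for Irx2 in the fit of the 4 E13.5 libraries alone. Leaving out an E15.5 library, which changes only the estimate of the spread, gave adjusted p-values of 0.0578 (wt replicate 2), 0.0579 (wt replicate 1) and 0.0791 (either EED-cKO replicate) for Irx1, and of 0.0624 (either EED-cKO replicate) for Irx2.

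In the IrxB cluster, Irx5 was at 6.7 and 6.8 RPKM in spinal cord, against 3.3 and 2.1 RPKM in forebrain. The groups were well apart, with a log2 change of 1.09 ± 0.168 (SE, 95% interval 0.69 to 1.48, limma adjusted p = 0.00183), and Irx5 passed in all 20 alternatives (adjusted p 0.000931 to 0.0301). Irx6 was at 1.3 and 1.1 RPKM in spinal cord, against 0.6 and 0.3 RPKM in forebrain, with a log2 change of 0.61 ± 0.127 (SE, limma adjusted p = 0.00707), and without spinal cord replicate 1 it missed the threshold (adjusted p = 0.0517). Irx3 was at 12.0 and 11.7 RPKM in spinal cord, against 9.2 and 5.7 RPKM in forebrain. The groups did not overlap, but the log2 change of 0.64 ± 0.231 (SE, 95% interval 0.09 to 1.18) just missed the threshold (limma adjusted p = 0.0592), and it passed in 6 of 20 alternatives, for example without wt E13.5 forebrain replicate 1 (log2 change 0.94, adjusted p = 0.0242). Without wt E13.5 forebrain replicate 2 the log2 change was 0.33 (adjusted p = 0.317).

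Summed RPKM of the IrxA genes was 24.6 and 24.8 in spinal cord, against 13.8 and 4.4 in wt E13.5 forebrain, a ratio of means of 2.71. For the IrxB genes it was 20.0 and 19.6 in spinal cord, against 13.1 and 8.1 in wt E13.5 forebrain, a ratio of 1.87. The ratio was thus higher for IrxA in the regional comparison and higher for IrxB in the knockout comparison, and neither difference between clusters was tested.

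The knockout change minus the regional change, which draws its terms from separate sets of 4 libraries, was tested gene by gene. It passed for 0 of the 5 tested members (limma, adjusted p under 0.05, and 0 at an unadjusted p under 0.05), against 36.1% of all tested genes. For Irx5 the difference was -0.03 (95% interval -0.59 to 0.53, adjusted p = 0.94), for Irx6 -0.10 (interval -0.53 to 0.32) and for Irx3 0.18 (interval -0.60 to 0.95). With a pseudocount of 0.1 RPKM in place of 1, that of Irx6 was -0.48. For Irx1 the difference was -0.80 (interval -2.09 to 0.48, adjusted p = 0.295) and for Irx2 -0.73 (interval -2.20 to 0.75, adjusted p = 0.406), so differences of more than 2 on the log2 scale lie inside the intervals of both. Without wt E13.5 forebrain replicate 1, the difference for Irx1 was -1.44 (adjusted p = 0.0235). Another tool was not run on this contrast.

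The genes beside the clusters were read for the same comparisons. Crnde, a long noncoding RNA gene that starts close to Irx5 on the other strand, was at 3.5 and 4.0 RPKM in EED-cKO forebrain, against 2.0 and 1.7 RPKM in wt E15.5 forebrain. It was at 5.9 and 6.1 RPKM in spinal cord, against 3.0 and 2.4 RPKM in wt E13.5 forebrain. Crnde was higher in both comparisons without overlap, with log2 changes of 0.74 ± 0.115 in the knockout (SE, limma adjusted p = 0.00222) and 0.92 ± 0.115 in spinal cord (adjusted p = 0.000685). Irx3os, the antisense gene over Irx3, was at 0.2 and 0.3 RPKM in EED-cKO forebrain, 0.1 in both wt E15.5 libraries, 0.5 and 0.4 in spinal cord and 0.2 and 0.1 in wt E13.5 forebrain, too low to be tested.

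Of 16 genes listed beside IrxB, 11 were tested, and 5 rose and 2 fell in EED-cKO (median log2 change 0.25, against 0.08 over all tested genes). Among all tested genes, 30.2% rose and 16.7% fell. Mmp2, which encodes a matrix metalloproteinase, was at 26.5 and 29.6 RPKM in EED-cKO forebrain, against 11.4 and 9.5 RPKM in wt E15.5 forebrain (log2 change 1.35 ± 0.122, limma adjusted p = 0.000266). Lpcat2, a lysophospholipid acyltransferase gene next to it, rose by a log2 change of 0.70 (limma adjusted p = 0.000966). Nudt21, an mRNA cleavage factor gene 1334.5 kb from the cluster, fell by 0.62 (adjusted p = 0.00176). Fto, whose introns are known in mouse and human for enhancers that act on Irx3 and Irx5, was at 117.6 and 119.5 RPKM in EED-cKO forebrain, against 107.9 and 91.7 RPKM in wt E15.5 forebrain. Its log2 change of 0.25 passed (adjusted p = 0.0423) and was below those of Irx3 and Irx5. In spinal cord against wt E13.5 forebrain, 4 of the 11 were higher and 2 lower, beside 21.8% and 23.9% of all tested genes. Fto did not pass there (log2 change 0.10, adjusted p = 0.362).

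Of 16 genes listed beside IrxA, 15 were tested, and 3 rose and 9 fell in EED-cKO (median log2 change -0.26), beside 30.2% and 16.7% of all tested genes. The list reaches far from the cluster. Med10, Ube2ql1, Nsun2 and Srd5a1, which all fell, lay 2141.8 to 2346.5 kb from it, and Adamts16 lay 1116.1 kb from it. The 3 that rose were Adamts16, a matrix protease gene (0.59), Slc12a7, a potassium chloride cotransporter gene (0.59), and Nkd2, an antagonist of WNT signalling (0.56), with limma adjusted p-values of 0.00769, 0.00907 and 0.00788. Ube2ql1, a ubiquitin-conjugating enzyme gene, was at 76.2 and 72.1 RPKM in EED-cKO forebrain, against 133.8 and 130.8 RPKM in wt E15.5 forebrain, and fell by 0.83 (adjusted p = 0.00126). In spinal cord, 2 of the 15 were higher and 5 lower, beside 21.8% and 23.9% of all tested genes. Ube2ql1 was higher there by 2.27 (limma adjusted p = 1.3e-05) and Adamts16 by 2.11 (2.39e-05). The genes beside IrxA that passed the test therefore went in both directions in each comparison. All 6 Irx genes had the higher values in the same groups, which is a looser measure than the test. By the test, 0 of the 2 tested IrxA genes passed in the knockout, while Irx1 and Irx2 passed in spinal cord. The E15.5 values of Mmp2, Nudt21, Adamts16, Slc12a7 and Nkd2 come from rows whose names moved when the row order was restored, while those of the Irx genes, Crnde, Lpcat2, Fto and Ube2ql1 do not.

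**Figure D4:**
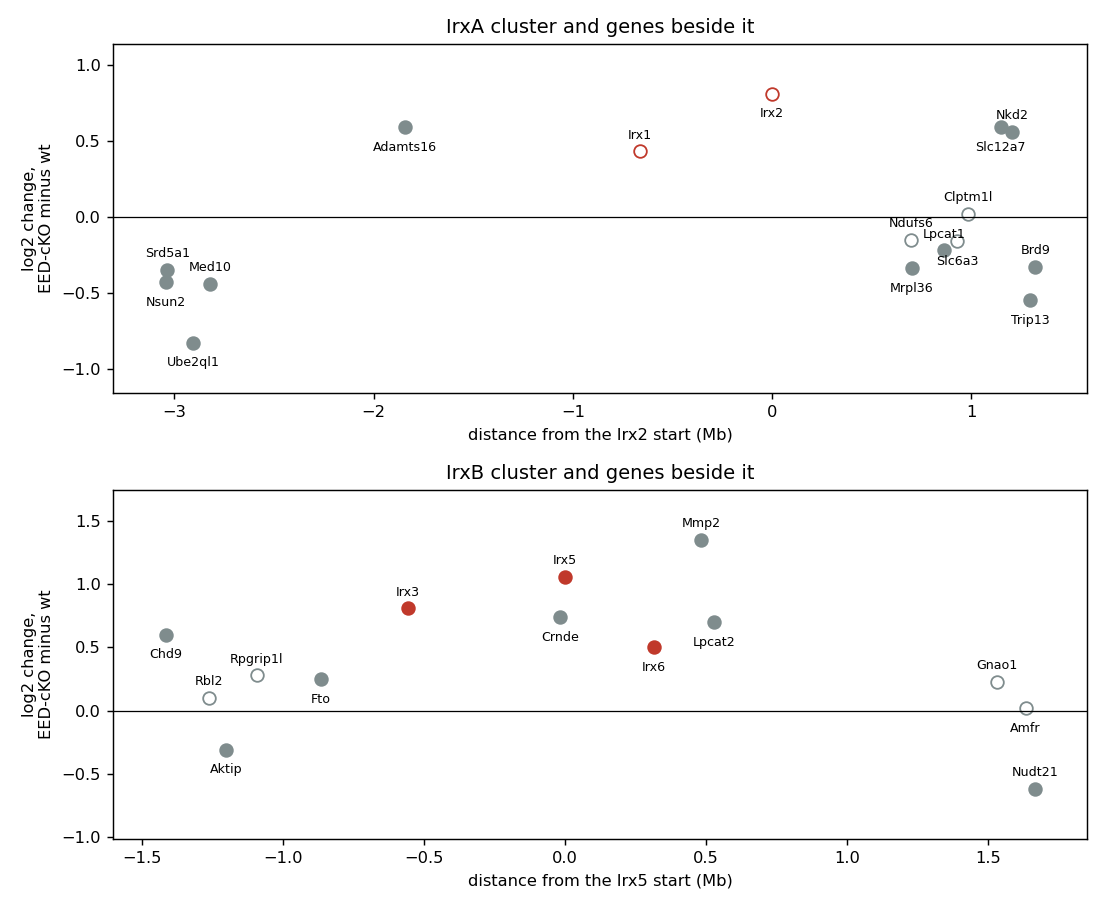
Log2 change of RPKM + 1, EED-cKO minus wt at E15.5 (vertical axis), against the distance from the start of Irx2 (top) or Irx5 (bottom) in Mb, for tested Irx genes (red) and listed neighbours (grey); filled points passed at a limma adjusted p under 0.05, and Papd7, whose symbol has no position in the annotation used, is not drawn. Irx2, Irx3, Irx5, Irx6, Crnde, Mmp2, Lpcat2 and Chd9 stand at 0.50 or higher. So do Adamts16, Slc12a7 and Nkd2 beside IrxA, where most grey points are below 0.

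The other TALE homeobox genes were tested as a family of comparison. Of 12, all tested, 5 rose and 3 fell in EED-cKO (median log2 change 0.07), beside 30.2% and 16.7% of all tested genes. Mkx, which rose, would not have passed the filter without the EED-cKO libraries. In spinal cord 5 were higher and 5 lower (median -0.02), beside 21.8% and 23.9%. Pbx3, which encodes a partner of Hox proteins, was at 125.6 and 127.7 RPKM in EED-cKO forebrain, against 65.3 and 56.3 RPKM in wt E15.5 forebrain (log2 change 1.05, limma adjusted p = 0.000199). Pknox2 rose by 1.01 (adjusted p = 0.00493) and Meis1 by 0.88 (0.000589), while Meis2, which is strong in the developing striatum, fell by 1.07 (8.21e-05). In spinal cord, Meis1 was higher by 2.25 (8.34e-06) and Pknox2 by 1.38 (0.00113), while Tgif2, a corepressor of TGF-beta signalling, was lower with a log2 change of -1.24 (6.81e-05). The TALE genes that passed thus went in both directions, and the difference from the Irx genes was not tested.

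Of the 23 caudal diencephalon and midbrain factors, 18 rose and 0 fell in EED-cKO forebrain, with a median log2 change of 1.57. Of all tested genes, 30.2% rose and 16.7% fell. En2 and Dmbx1, which rose, would not have passed the filter without the EED-cKO libraries. Pax2, a factor of the midbrain and hindbrain border, was at 20.0 and 16.8 RPKM in EED-cKO forebrain, against 0.0 and 0.1 RPKM in wt E15.5 forebrain (log2 change 4.20, limma adjusted p = 2.9e-06). Tal1, a factor of GABAergic neurons in the midbrain and thalamus, was at 55.7 and 49.8 RPKM in EED-cKO forebrain and at 3.3 and 1.3 RPKM in wt E15.5 forebrain (4.09, adjusted p = 8.87e-05). Gata3, which acts with Tal1, rose by 3.39 (adjusted p = 0.00226) and Pax8, a relative of Pax2, by 3.01 (2.9e-06). These changes were several times those of the Irx genes on the same scale. Tcf7l2 was at 25.1 and 48.8 RPKM in EED-cKO forebrain and at 65.1 and 26.4 RPKM in wt E15.5 forebrain, so its groups overlapped (log2 change -0.24, adjusted p = 0.71). In spinal cord 8 of the 23 were higher, among them Pax2 (5.27) and Pax8 (4.44), and 8 were lower, among them Otx2 (-4.58) and Otx1 (-4.45), the factors of forebrain and midbrain. Of all tested genes, 21.8% were higher there and 23.9% lower.

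Of 20 factors that define progenitor domains of the spinal cord, 11 rose and 2 fell in EED-cKO (median log2 change 0.96), beside 30.2% and 16.7% of all tested genes. Nkx2-9, which rose, passed the filter only through the EED-cKO libraries. Olig3, which marks dorsal progenitors and, in the brain, the thalamus, was at 21.4 and 18.4 RPKM in EED-cKO forebrain, against 0.4 and 0.2 RPKM in wt E15.5 forebrain (4.01, limma adjusted p = 4.17e-06). Foxa2, the floor plate factor, rose by 2.86 (6.02e-05), Nkx2-2, a ventral progenitor factor, by 2.09 (4.92e-05), and Msx1, a roof plate factor, by 1.81 (0.000803). Olig2, which opposes Irx3 in the ventral spinal cord, was at 11.8 and 10.3 RPKM in EED-cKO forebrain and at 14.7 and 12.9 RPKM in wt E15.5 forebrain, and its log2 change of -0.30 did not pass (adjusted p = 0.0505). In spinal cord Olig2 was at 4.6 and 4.1 RPKM, against 18.9 and 20.3 RPKM in wt E13.5 forebrain (-1.95, adjusted p = 1.7e-05), the direction opposite to that of the Irx genes. Of the 20, 9 were higher in spinal cord, among them Msx3 (2.92) and Nkx6-1 (2.67), and 6 were lower, among them Pax6 (-2.23). Over all tested genes the shares were 21.8% and 23.9%.

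The forebrain factors that border on or oppose Irx territory were all lower in spinal cord, 13 of 13 tested, beside 23.9% of all tested genes. Their median log2 change was -4.69. In EED-cKO forebrain they were split, with 4 higher and 6 lower (median 0.03), beside 30.2% and 16.7% of all tested genes. Six3, whose protein represses Irx3 across the border within the diencephalon of the chick, was at 33.1 and 34.2 RPKM in EED-cKO forebrain, against 27.4 and 22.7 RPKM in wt E15.5 forebrain (log2 change 0.42, limma adjusted p = 0.0115). Six6, an eye field and hypothalamus factor, rose by 2.99 (adjusted p = 1.83e-05). The cortical factor Fezf2 fell by 2.47 (8.38e-06), and Emx1, another cortical factor, fell by 2.24 (0.000106). In the knockout, Six3 and the Irx genes were thus higher in the same libraries, while in spinal cord Six3 was at 0.1 RPKM in either library, against 18.2 and 18.9 RPKM in wt E13.5 forebrain.

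Genes of the WNT, SHH and retinoid pathways, signals that act on Irx expression in the vertebrate neural tube, were tested as a list of 20. Of the 19 tested, 13 rose and 3 fell in EED-cKO (median log2 change 0.66), beside 30.2% and 16.7% of all tested genes. Hhip, which rose, passed the filter only through the EED-cKO libraries. Crabp1, a retinoic acid binding protein gene, was at 166.1 and 153.3 RPKM in EED-cKO forebrain, against 32.5 and 44.9 RPKM in wt E15.5 forebrain (log2 change 2.03, limma adjusted p = 0.000141). The SHH targets Hhip and Gli1 rose by 1.12 (0.000347) and 1.09 (0.000954), and Axin2, a WNT target, by 1.04 (0.000608). In spinal cord 6 were higher and 5 lower, beside 21.8% and 23.9% of all tested genes. Aldh1a2, the retinoic acid synthesis enzyme gene, was higher by 3.04 (limma adjusted p = 2.42e-05) and Wnt8b lower with a log2 change of -2.99 (7.36e-06).

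Irx genes are also known from mesenchyme, heart, limb and epithelia, and markers of such tissues were read beside them. The counts below stand beside 30.2% of all tested genes that rose and 16.7% that fell in EED-cKO. All 14 mesenchyme and meninges markers rose in EED-cKO (median log2 change 1.49), with a summed level of 812.1 and 980.2 RPKM in EED-cKO forebrain, against 277.0 and 212.4 RPKM in wt E15.5 forebrain. Of 14 limb and heart factors, 8 were tested and 7 rose. Hand2, Nkx2-5, Tbx5, Gata4 and Gata6 passed the filter only through the EED-cKO libraries, so their rise was set by the filter. The sums of all 14 were 80.4 and 100.6 RPKM in EED-cKO forebrain, against 10.6 and 7.9 RPKM in wt E15.5 forebrain. Hand2, Nkx2-5 and Gata4 are listed at 0 in wt E15.5 replicates 1 and 2. The heart muscle gene Myl2 had 0.5 RPKM in each EED-cKO library, against 0.4 and 0.6 RPKM in wt E15.5 forebrain. Actc1, another muscle gene of the list, which was not tested, had 0.3 and 25.4 RPKM in EED-cKO replicates 1 and 2, against 0.6 and 0.7 RPKM in wt E15.5 forebrain, so the higher sum of EED-cKO replicate 2 rests on it. Skin, ear and epithelium markers rose in 8 of 9 and fell in 1, with sums of 92.6 and 121.9 RPKM in EED-cKO forebrain, against 28.6 and 19.3 RPKM in wt E15.5 forebrain. Most tested markers of mesenchyme, meninges, skin, ear and epithelium were thus higher in the same libraries as the Irx genes. Choroid plexus markers rose in 9 of 9 (sums 5913.0 and 4631.7 RPKM in EED-cKO, against 2158.4 and 2312.8 in wt), endothelium markers in 8 of 8 (262.4 and 273.2 in EED-cKO, against 183.2 and 174.1 in wt) and microglia markers in 6 of 7 (145.1 and 156.9 in EED-cKO, against 80.3 and 87.6 in wt). Kl, of the choroid plexus list, passed the filter only through the EED-cKO libraries. Blood cell markers rose in 2 of 8 and fell in 1 (11533.9 and 12986.3 RPKM in EED-cKO forebrain, against 8274.0 and 11079.7 RPKM in wt). The 1 that fell was the globin gene Hbb-bt, at 5.9 and 8.1 RPKM in EED-cKO, against 395.4 and 547.4 in wt (log2 change -5.88, limma adjusted p = 8.44e-06). Hbb-bs was at 5109.1 and 5902.3 RPKM, against 3159.1 and 4340.1, and did not pass. Why these globin genes differed between the groups was not tested. Cortical neuron markers fell in 8 of 8 (106.6 and 99.6 in EED-cKO, against 840.6 and 872.7 in wt). The part of these tissues in the Irx results was not tested.

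In the regional comparison the same lists were mixed in direction, beside 21.8% of all tested genes that were higher in spinal cord and 23.9% that were lower. Mesenchyme markers were higher in spinal cord in 4 of 14 and lower in 4, with sums of 425.5 and 453.8 RPKM in spinal cord, against 284.4 and 297.9 RPKM in wt E13.5 forebrain. Limb and heart factors were higher in 2 of 8 and lower in 0 (11.6 and 10.0 RPKM in spinal cord, against 7.1 and 6.2 in forebrain), and microglia markers were higher in 5 of 7 (51.6 and 44.4 in spinal cord, against 35.4 and 29.2 in forebrain). Choroid plexus markers were lower in 6 of 9 (12.1 and 15.1 in spinal cord, against 246.2 and 252.5 in forebrain). Skin, ear and epithelium markers were higher in 3 of 9 and lower in 5, endothelium markers higher in 1 of 8, blood cell markers lower in 6 of 8 and cortical neuron markers lower in 8 of 8.

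Patterns over the 8 libraries were compared by Pearson's r of log2(RPKM + 1), as a description, since the libraries share 4 group levels and the wt replicate differences. The r values run over both ages, and so also hold any difference in scale between the E13.5 and E15.5 columns. Irx1 and Irx2 were most alike within the family (r = 0.968), followed by Irx2 and Irx5 of the other cluster (0.908) and Irx1 and Irx5 (0.833), while Irx3 and Irx6 had r = 0.148. Within the IrxB cluster, Irx5 had r = 0.756 with Irx3 and 0.743 with Irx6. Among 13831 genes outside the family, the 3 nearest to Irx5 were Greb1l (0.99), Postn, which encodes the matrix protein periostin (0.982), and Plcd1, a phospholipase C gene (0.978). Postn was at 29.5 and 32.1 RPKM in EED-cKO forebrain, against 12.5 and 10.0 RPKM in wt E15.5 forebrain, and at 33.3 and 25.9 RPKM in spinal cord, against 13.2 and 10.3 RPKM in wt E13.5 forebrain. Postn was picked for this likeness, and its values only show the pattern.

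The genes nearest to Irx1 were Bend7 (0.949), March8 (0.946) and Alkbh8 (0.941), and those nearest to Irx2 were Pex26 (0.983), Bend7 (0.977) and Asap1 (0.969). Bend7 was at 3.7 and 4.3 RPKM in EED-cKO forebrain, against 2.6 and 1.8 RPKM in wt E15.5 forebrain, and at 4.2 and 4.0 RPKM in spinal cord, against 2.6 and 1.2 RPKM in wt E13.5 forebrain. Bend7 was picked for its likeness to Irx1 and Irx2, and its higher wt replicate 1 at both ages is part of that likeness. Nearest to Irx3 were Rcor3 (0.983), Asb13 (0.974) and Pde1c (0.966), and nearest to Irx6 were Slc31a2 (0.994), Card19 (0.986) and Ube2cbp (0.986).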

How the data were processed

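RPKM values were deposited by the authors in 1 table of 8 libraries and 36333 rows, from single-end, unstranded reads of 50 bases per the labels' protocols. Per the submitters' processing notes, the builds were mm9 and GRCm38. Which build served which library, the aligner and the counting tool are not given in the sources used here. Of the names, 23016 move when those of the E15.5 columns are sorted alphabetically without regard to case or hyphens, which was done here. Across all rows, the correlation of wt forebrain between the ages was 0.948 in that order and 0.760 in the deposited one. In the 207 rows around the Irx genes it was 0.960 and at most 0.286 after shifts by up to 5 rows. The Irx genes are in the same row in both orders (0 of 6 moved).

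Of rows with a repeated symbol, the one of highest mean was used. Values were tested as log2(RPKM + 1), so folds of low genes are understated, in limma 3.58.1 (R 4.3.3, eBayes with trend, two-sided, 4 group means over 8 libraries, 4 residual degrees of freedom), for the 17022 genes that reached 1 RPKM in 2 or more libraries. Benjamini-Hochberg adjustment ran over these genes, and a call is an adjusted p under 0.05. In a test on simulated data, a true log2 change of 1 was found for 91 of 100 genes in the knockout comparison (15446 genes tested, 10 unchanged genes called) and 81 of 100 in the regional one (15430 tested, 13 called). The simulated noise was independent between genes and libraries, and far fewer genes changed than were called in the data. Changed genes were not drawn from those of low mean level, so the counts do not cover a gene as low as Irx6. They pool genes of unlike spread and do not give the recovery of Irx1 or Irx2. The text names, per list and comparison, at most 4 called genes of largest change, with other list members added after their values were seen. The members and lists were chosen with earlier results of these data known. Alternatives covered the row order, pseudocount, filter, scaling, libraries fitted, variance trend, replicate block and leaving out each library. Sequences came from RefSeq (GRCm38.p6) and GENCODE M21, and tables and figures from Python 3.11.15, pandas 2.3.3 and matplotlib 3.10.9.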

Additional observations from a re-analysis of the deposited data

How the results depend on the processing

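Calls of Irx5 held in both comparisons under all 20 alternatives, while those of Irx1, Irx2, Irx3 and Irx6 each changed under some alternative in at least 1 of the comparisons. Of the Irx genes, 1 passed in the knockout under quantile normalization, 2 passed in the regional comparison when only the 4 E13.5 libraries were fitted, and 1, Irx4, passed for the difference of the changes with no filter on low values (adjusted p = 0.0116, beside 23.1% of 28325 genes). In that fit Irx4 also passed in the knockout (0.0227) and the regional comparison (0.000945), so that 3 of 6 Irx genes passed in each. With only the 4 E15.5 libraries fitted, 4777 genes passed in the knockout, against 7987. Leaving out 1 library gave 1 to 3 Irx genes in the knockout, 1 to 5 in the regional comparison and 0 to 1 for the difference of the changes, beside 4922 to 9606, 5205 to 9320 and 4217 to 7807 genes of the whole table. The difference of the changes turned direction, without passing, for Irx3 under quantile normalization (-0.16), without wt E13.5 forebrain replicate 1 (-0.13) and without wt E15.5 replicate 2 (-0.09). It turned for Irx5 without wt E13.5 forebrain replicate 2 (0.21), wt E15.5 replicate 1 (0.07) or EED-cKO replicate 1 (0.09), and for Irx6 without wt E13.5 forebrain replicate 2 (0.05) or wt E15.5 replicate 2 (0.00). Leaving out 1 library gave -0.13 to 0.48 for Irx3, -0.26 to 0.21 for Irx5 and -0.25 to 0.05 for Irx6. The difference for Irx6 was -0.48 with a pseudocount of 0.1 RPKM and -0.39 under quantile normalization, which gave -0.31 for Irx5. RPKM sums differ between the ages, so the added 1 RPKM can weigh differently on the 2 changes, most for genes as low as Irx6. Median ratio scaling put the summed RPKM of the 6 genes at 26.1 in EED-cKO forebrain and 56.4 in spinal cord, against 35.4 and 44.5. Of the knockout calls, 64.5% were higher as deposited, 46% after quantile normalization and 45.4% after median ratio scaling, with medians of all tested genes of 0.08, -0.04 and -0.04. The cause was not tested for any of these.

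The deviations of same-numbered replicates had r = -0.124 between EED-cKO and wt at E15.5 and 0.211 between the E13.5 tissues. Between groups of different age r was -0.006 to 0.048. The labels do not say whether same-numbered libraries share an embryo or a batch, and with 2 replicates per group these values cannot decide it. With the replicate number as a block, 3 Irx genes and 7608 of all genes passed in the knockout, and 5 Irx genes (Irx3 gained, adjusted p = 0.0467) and 7466 of all genes in the regional comparison. With the EED-cKO numbers crossed, a setting chosen after seeing the data, 3 Irx genes and 8013 of all genes passed in the knockout. Depth is unknown, values come in 0.1 RPKM steps, and each group has 2 libraries, which limits the precision of every Irx value.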
